A study of Mus musculus with 6 samples.

Results

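The cerebral cortex was profiled by RNA-seq in 6 male wild-type C57BL/6J mice, of which 3 were 6 months old (mice 10, 11 and 17) and 3 were 24 months old (mice 2, 4 and 5). All mice were anesthetized with isoflurane before cervical dislocation, the whole brain was washed in saline, and the cortex was microdissected, frozen and powdered. The methods name no step that removes or keeps the meninges, the membranes on the surface of the cortex. Here, 10 genes of meningeal and perivascular fibroblasts, which are Dcn, Lum, Igf2, Slc6a13, Ptgds, Slc22a6, Ogn, Mgp, Fmod and Bgn, were taken by symbol from the 55421 genes in the files and followed mouse by mouse in both ages. All 10 had at least 10 counts over the 6 libraries and were among the 32905 genes tested.

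Fibroblasts are a small population in the brain. They form the pia and the arachnoid at its surface and follow the larger vessels into the cortex within the perivascular space. They deposit collagens and small leucine-rich proteoglycans, secreted proteins that bind collagen fibrils, and they carry transporters that move GABA, taurine and organic anions between the cerebrospinal fluid and its surroundings. Several of these mRNAs are widely used as marks of fibroblasts in brain tissue. In bulk tissue, fewer fibroblasts and less RNA per fibroblast cannot be told apart.

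The levels of the 10 genes followed nearly the same order of mice within each age. At 6 months, mouse 17 had the highest and mouse 10 the lowest level of 10 of 10 genes. At 24 months, mouse 4 had the highest level of 10 of 10 genes and mouse 2 the lowest of 9, the exception being Ogn, which was lowest in mouse 5. As a median over the 10 genes, the highest mouse was 2.64-fold above the lowest at 6 months and 2.69-fold above it at 24 months. These folds are on the CPM scale (counts scaled to library size with TMM factors). The levels of the 2 ages overlapped for 10 of 10 genes, whereas 36.3% of all genes tested had ages that did not overlap. In the test for a difference between ages, none of the 10 passed 1% FDR, and none (0.0%) of all 32905 genes tested did.

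**Figure D1:**
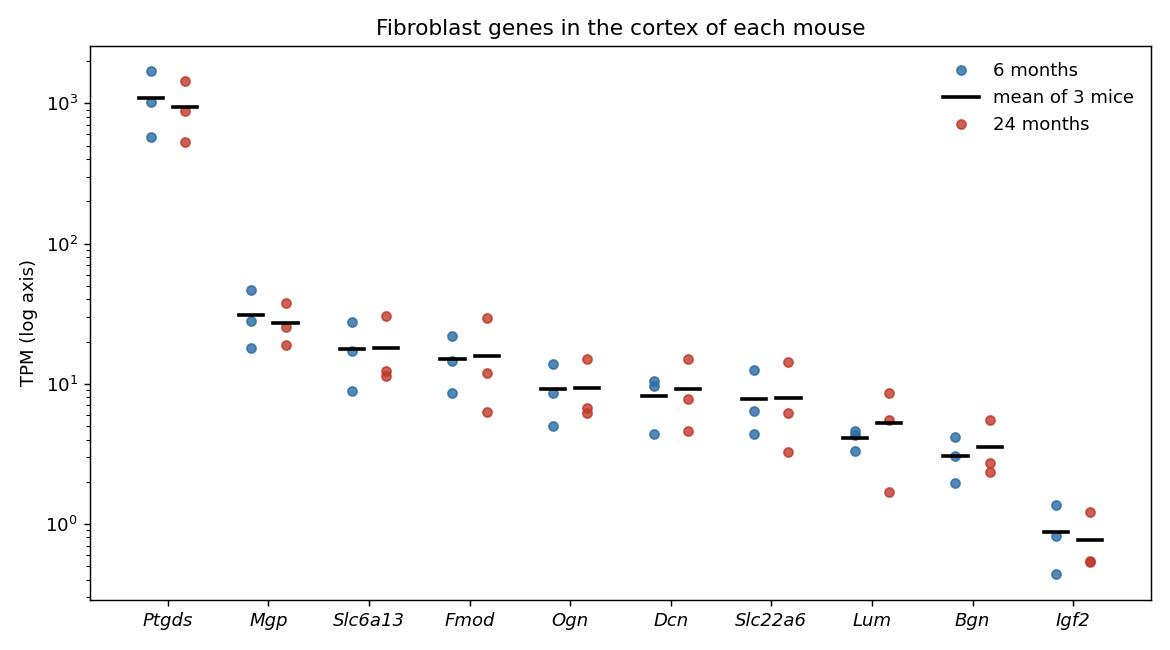
Levels of the 10 fibroblast genes in each mouse, in TPM (transcript abundance corrected for gene length and library size) on a log axis, with blue points for the 3 mice of 6 months, red points for the 3 mice of 24 months and black lines for the mean of each age. Ptgds lies far above the other 9 genes, and the points of both ages cover overlapping ranges for each gene.

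The genes differed widely in level. In TPM, which allow a comparison between genes, the mean over the 6 mice was 1023 for Ptgds, 29.1 for Mgp, 17.9 for Slc6a13, 15.4 for Fmod, 9.22 for Ogn, 8.64 for Dcn, 7.82 for Slc22a6, 4.66 for Lum, 3.29 for Bgn and 0.821 for Igf2. Of the 9 pairs of neighbours in this order, 7 had ranges over the mice that overlapped. Only Ptgds with Mgp and Bgn with Igf2 had ranges that did not. Within mice the order was steadier, since 5 of the 9 pairs stood in the same order in 6 of 6 mice, whereas Ogn was above Dcn in 3 of 6.

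The first group of members is the small leucine-rich proteoglycans. Decorin (Dcn), which binds collagen and holds TGF-beta, was at 4.41, 9.62 and 10.5 TPM in mice 10, 11 and 17 and at 4.57, 15.04 and 7.72 TPM in mice 2, 4 and 5. Lumican (Lum), which spaces collagen fibrils, was at 3.29, 4.31 and 4.61 TPM at 6 months and at 1.68, 8.58 and 5.48 TPM at 24 months, in the same order of mice. On the CPM scale, Lum had the narrowest range at 6 months (1.39-fold) and the widest at 24 months (5.12-fold) of the 10 genes. Fibromodulin (Fmod), another collagen-binding member of the family, was at 8.57, 14.5 and 21.9 TPM at 6 months and at 6.29, 29.3 and 12.0 TPM at 24 months. Osteoglycin (Ogn), also known as mimecan, was at 5.04, 8.59 and 13.8 TPM at 6 months and at 6.73, 15 and 6.15 TPM at 24 months. Both genes had their 2 highest values in mice 17 and 4, 1 mouse of each age. Biglycan (Bgn), the close relative of decorin, was at 1.97, 3.04 and 4.18 TPM at 6 months and at 2.35, 5.50 and 2.71 TPM at 24 months, with the same mice on top.

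Matrix Gla protein (Mgp) is a secreted inhibitor of calcification found in vessel walls and connective tissue. It was at 18.1, 28.2 and 46.5 TPM in mice 10, 11 and 17 and at 18.8, 37.5 and 25.4 TPM in mice 2, 4 and 5. Its range at 24 months, 2.00-fold, was the narrowest of the 10 genes at that age, and mouse 17 rather than mouse 4 was highest of all 6. The transporters had a wider range. Slc6a13 (GAT2), which takes up GABA and taurine and marks leptomeningeal fibroblasts, was at 8.82, 17.2 and 27.4 TPM at 6 months and at 11.4, 30.2 and 12.3 TPM at 24 months. Slc22a6 (OAT1), an organic anion transporter best known from the kidney, was at 4.35, 6.41 and 12.5 TPM at 6 months and at 3.27, 14.3 and 6.18 TPM at 24 months. For Slc22a6, the highest of the 6 mice was 4.37-fold above the lowest on the CPM scale (counts scaled to library size with TMM factors), a range behind those of Lum and Fmod only.

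Ptgds makes prostaglandin D2 and is also secreted into the cerebrospinal fluid as a carrier protein. It was at 576, 1024 and 1699 TPM in mice 10, 11 and 17 and at 526, 1436 and 875 TPM in mice 2, 4 and 5. It took 90.2% to 92.3% of the summed TPM of the 10 genes, so the sum is given with and without it. The sum was 630.8, 1117 and 1841 TPM at 6 months and 581.5, 1593 and 953.5 TPM at 24 months. Without Ptgds it was 54.9, 92.6 and 142.7 TPM at 6 months and 55.6, 156.6 and 78.5 TPM at 24 months. The highest sum was 3.17-fold above the lowest, and 2.85-fold without Ptgds. The means of the 2 ages were 1196 ± 609 and 1043 ± 512 TPM (SD, n = 3 each), and without Ptgds they were 96.7 ± 44.0 and 96.9 ± 52.9 TPM (SD, n = 3 each).

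Igf2, an imprinted growth factor that the meninges continue to make in the adult brain, had the lowest counts. It had 22, 46 and 73 counts in mice 10, 11 and 17 and 26, 63 and 28 counts in mice 2, 4 and 5, which came to 0.436 to 1.37 TPM. Mouse 17 was highest again at 6 months, and mouse 4 at 24 months. The level of Igf2 is uncertain for a further reason. On GRCm38 it lies at chr7:142650766-142666816 on the minus strand, and the GENCODE vM21 annotation places a second gene on the same strand, Gm49394, over 3596 of its 5723 exonic bases (62.8%). Gm49394 had 0 counts in every library, and how reads in the shared bases were assigned cannot be read from the counts. The antisense gene Igf2os shares 98 exonic bases with Igf2 and had 0 to 9 counts.

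**Figure D2:**
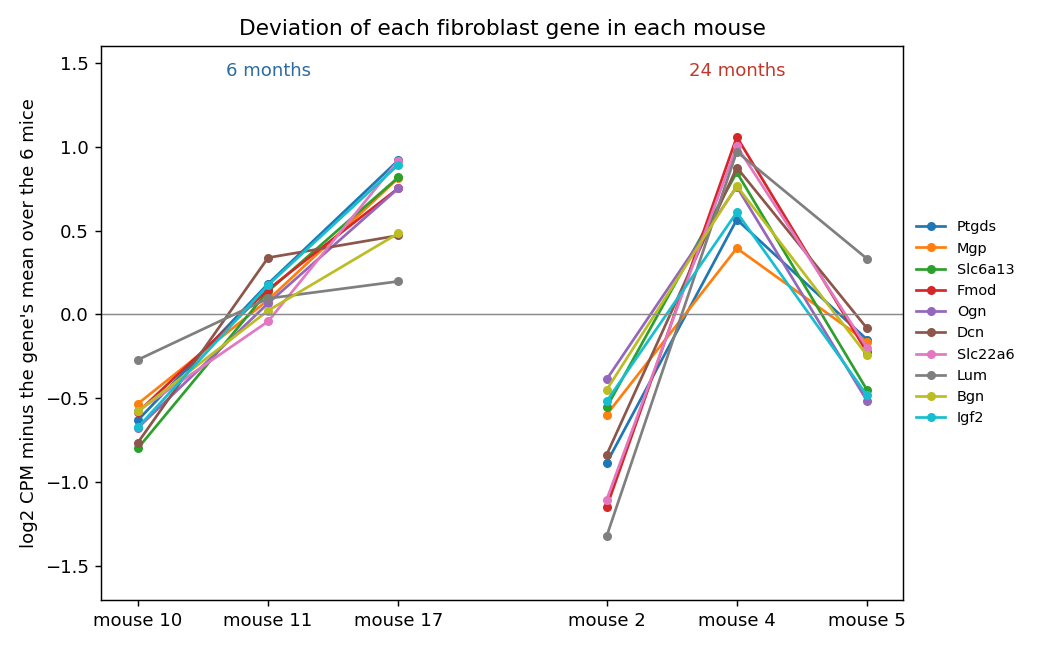
Deviation of each of the 10 genes in each mouse, as log2 CPM minus the mean of that gene over the 6 mice. Lines join the values of a gene within an age (the mice have no order), and mice 17 and 4 lie above the mean of each gene while mice 10 and 2 lie below it for each gene.

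The agreement among the genes was described against the other genes of the cortex. The full order (mouse 17 highest and 10 lowest at 6 months, mouse 4 highest and 2 lowest at 24 months) was found for 9 of 10 members, and for 2.82% of the 15761 genes with a mean of at least 1 CPM. This order was chosen after the values were seen, so the count is a description. The SD between mice of an age, on the log2 scale and pooled over the 2 ages, was 0.592 (Mgp) to 0.919 (Slc22a6) for the 10 genes, with a median of 0.762. The median over the 15761 genes was 0.165, and 495 of them (3.14%) had an SD at least as large as that of Mgp. Of the variation of a member over the 6 mice, 0.0107% to 6.15% lay between the ages, with a median of 1.20%, against a median of 39.6% for the 15761 genes. Thus, most of the spread of the 10 genes lay between mice of the same age.

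Counting error was smaller than these differences for most genes. The exact Poisson 95% intervals of mice 2 and 4 overlapped for 0 of 10 genes, and those of mice 10 and 17 for 1 of 10 (Lum, with 71 and 105 counts). Mice 2 and 5, the 2 lower mice of 24 months, had overlapping intervals for 4 of 10 genes (Slc6a13, Igf2, Ogn and Bgn). At 6 months, the middle mouse 11 overlapped mouse 17 for Dcn, Lum and Igf2, and mouse 10 for Lum and Igf2. For these genes, the place of mouse 17 as highest, or of mouse 10 as lowest, was thus within counting error. Across the ages, the low mice 10 and 2 overlapped for 6 genes and the high mice 17 and 4 for 5. These intervals cover counting error only, and reads without molecular identifiers are not independent molecules. Ptgds, with 7385 to 26037 counts, had intervals narrow enough that each of the 6 mice differed from the others by more than counting error.

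For the comparison of ages, counts were fitted with edgeR's quasi-likelihood test over all 32905 genes. The log2 fold change of 24 against 6 months ran from -0.33 for Ptgds to 0.26 for Lum, with 3 genes higher (Lum, Bgn and Dcn) and 7 lower at 24 months. The median of the 10 was -0.08, the median over all genes tested was 0.15, and the median over genes with a mean of at least 1 CPM was -0.14. The smallest adjusted p (Benjamini-Hochberg) was 0.568, for Mgp. Thus 0 of 10 genes passed an FDR of 1%, against 0.0% of all genes tested. At an unadjusted p under 0.05 there were again 0 of 10, against 30.7% of all genes tested, and none of the 10 passed 1% FDR by other tests either, against 5.18% of the genes with edgeR's likelihood ratio test, 0.836% with DESeq2 and 0.0% with limma.

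These tests leave room for sizeable differences. The 95% interval of the log2 fold change was -1.21 to 0.55 for Ptgds (SE 0.39), with 514.8 ± 263.7 CPM at 6 months and 409.8 ± 199.2 CPM at 24 months (SD, n = 3 each). For Fmod it was -1.11 to 1.05 (SE 0.48), with 14.1 ± 6.24 and 13.8 ± 10.4 CPM. For Mgp it was -1.03 to 0.44 (SE 0.33), with 10.4 ± 4.84 and 8.50 ± 2.97 CPM. Differences within these intervals were not excluded by this test with 3 mice per age. The direction itself turned on single mice: without the 24-month mouse 4, 10 of 10 genes were lower at 24 months (median log2 fold change -0.65), and without the 6-month mouse 17, 10 of 10 were higher (0.34). With library totals in place of TMM scaling, 7 of 10 were higher (median 0.10), and the median over all genes tested was then 0.34.

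**Figure D3:**
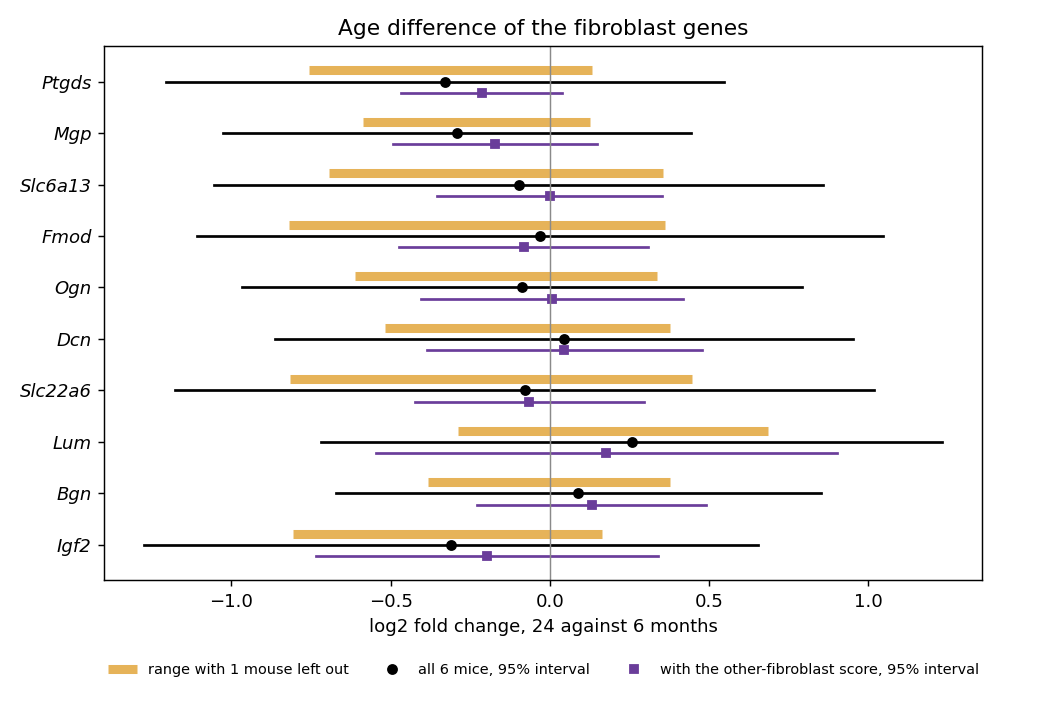
Log2 fold change of 24 against 6 months for each of the 10 genes. Black points and lines give the estimate and 95% interval from all 6 mice, orange bars the range of the estimate with each mouse left out in turn, and purple squares and lines the estimate and 95% interval with the score of the other fibroblast markers in the model. All intervals and orange bars include 0.

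Further genes listed as markers of meningeal and perivascular fibroblasts were examined beside the members. Whether other cells of the cortex also gave these mRNAs was not tested. Of 29 further fibroblast markers, 24 had a mean of at least 1 CPM. Of these 24, 14 followed the order of mice described above, and their median log2 deviation was -0.45, 0.02 and 0.54 in mice 10, 11 and 17 and -0.47, 0.50 and -0.20 in mice 2, 4 and 5. The median deviation of the 10 members was -0.61, 0.12 and 0.78 in mice 10, 11 and 17 and -0.72, 0.81 and -0.21 in mice 2, 4 and 5. Among the 5 most abundant of the further markers, Gjb2, a gap junction protein of the arachnoid, was at 15.9, 27.0 and 43.6 TPM at 6 months and at 17.2, 41.7 and 22.4 TPM at 24 months. Apod, Serpinf1 and Islr followed the same order of mice. Ccn3 did not, at 30.8, 29.2 and 33.5 TPM at 6 months and 30.6, 28.95 and 22.1 TPM at 24 months. In the test of age, 1 of the 29 was higher (Pi16, named after its value was seen) and 1 lower (Ccn3) at an unadjusted p under 0.05 (30.7% of all genes tested), while 0 passed 1% FDR with edgeR.

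A score for each mouse, the mean log2 deviation of those 24 markers, was then added to the model as a covariate, an alternative chosen after seeing the data. The score was -0.40, -0.02 and 0.50 in mice 10, 11 and 17 and -0.43, 0.46 and -0.12 in mice 2, 4 and 5. With it, the median SE of the 10 members was 0.17, as compared to 0.42 without it. The estimates stayed near 0 for Slc6a13 (-0.0011, SE 0.16), Ogn (0.0069, SE 0.18) and Dcn (0.05, SE 0.19). Ptgds was at -0.21 (SE 0.11, 95% interval -0.47 to 0.04), and edgeR's quasi-likelihood test gave it an adjusted p of 0.240, while the other 9 members had adjusted p from 0.439 to 0.997. No member passed 1% FDR. The score is itself measured on these libraries, so this model compares the members with the listed fibroblast markers and not with the whole cortex.

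**Figure D4:**
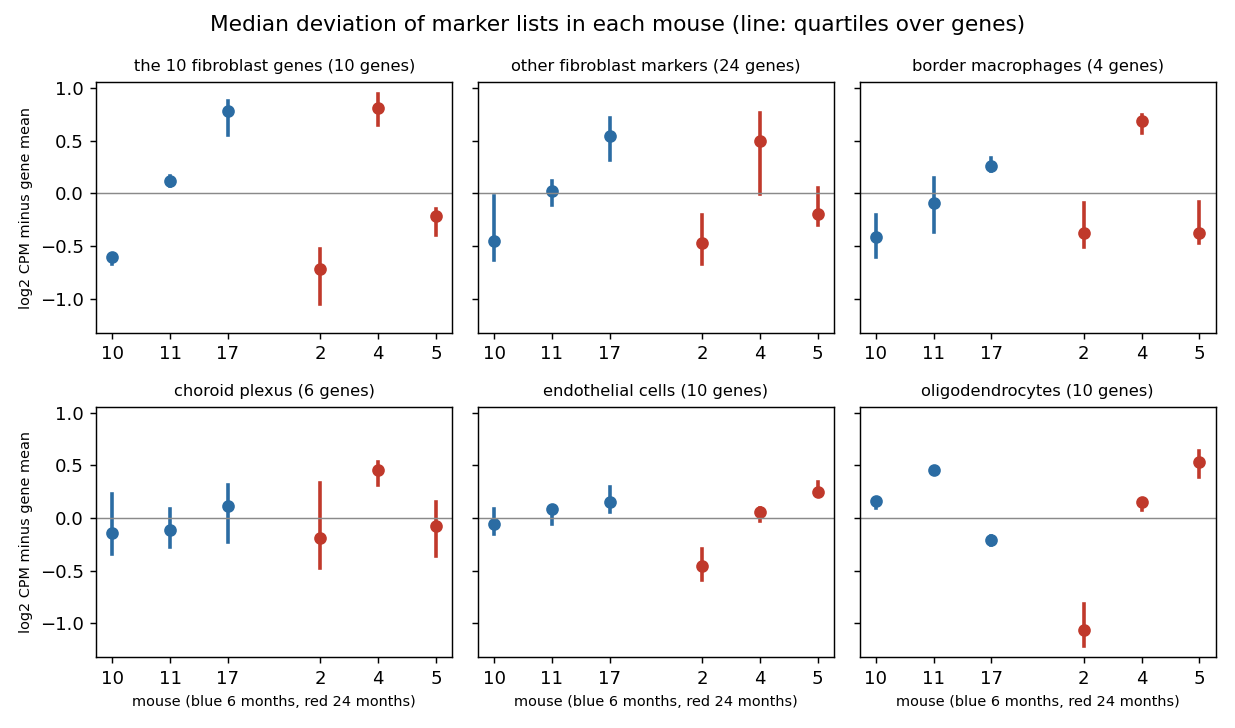
Median deviation of marker lists in each mouse, as log2 CPM minus the mean of each gene over the 6 mice, for genes with a mean of at least 1 CPM. Points are medians and lines run from the lower to the upper quartile over genes. The other fibroblast markers have mice 17 and 4 on top as the 10 genes do, while the oligodendrocyte list has mouse 11 on top at 6 months and mouse 5 at 24 months.

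Ptgds is also known from oligodendrocytes and the choroid plexus, so their markers are given beside it. The oligodendrocyte list also varied widely between mice of an age, with a median within-age SD of 0.618 over 10 genes. Of its 10 genes, 0 followed the order of mice found for the fibroblast genes (2.82% of genes with a mean of at least 1 CPM did). Its median deviation was 0.16, 0.45 and -0.21 in mice 10, 11 and 17, so mouse 17, the highest for Ptgds at 6 months, was the lowest for oligodendrocytes. At 24 months it was -1.06, 0.15 and 0.53 in mice 2, 4 and 5. The choroid plexus list had a median deviation of -0.14, -0.12 and 0.11 in mice 10, 11 and 17 and of -0.19, 0.45 and -0.08 in mice 2, 4 and 5, so its median had the same mice on top and at the bottom of each age as Ptgds. Among its genes, 1 of 6 genes with a mean of at least 1 CPM followed the order (Kcnj13). Transthyretin (Ttr), the most abundant secreted product of that tissue, was at 109.7, 31.9 and 51.3 TPM in mice 10, 11 and 17 and at 109.1, 106.9 and 43.9 TPM in mice 2, 4 and 5. For Ttr, unlike the median of its list, mouse 10 was the highest at 6 months and mouse 2 at 24 months. The part of each cell type in the Ptgds signal was not tested.

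Markers of other cells at the brain surface and along vessels moved in part with the fibroblast genes. Of the 8 macrophage markers of the brain borders, 4 had a mean of at least 1 CPM, and 2 of these followed the order of mice. The summed level of all 8 was 10.6, 13.9 and 18.0 TPM at 6 months and 10.8, 22.2 and 14.1 TPM at 24 months, with mice 17 and 4 again on top. The order was followed by 0 of 10 endothelial genes and 0 of 9 genes of pericytes and vascular smooth muscle, at this expression cutoff. The endothelial sum was 397.7, 404.5 and 432.7 TPM at 6 months and 292.0, 438.8 and 483.9 TPM at 24 months, so mouse 2 was low here too but mouse 5, not mouse 4, was highest. Likewise, 0 of 9 astrocyte genes, 0 of 8 microglial genes and 0 of 10 neuronal genes followed the order, and 1 of 5 red cell genes did (Alas2). Over the 15761 genes with a mean of at least 1 CPM, 2.82% followed it. At that share, lists of this size can hold 0 such genes. A low mouse 2 was not particular to the fibroblast genes. By median log2 deviation, mouse 2 was the lowest of all mice for endothelial cells (-0.46), pericytes and vascular smooth muscle (-0.44) and red cells (-0.52). The same held for neurons (-0.32) and astrocytes (-0.09), but not for microglia (-0.0008) or border macrophages (-0.38). Whether the share of surface or vessel tissue in the samples differed was not tested.

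Relatives of the members were examined next. The small leucine-rich proteoglycan list held 17 genes, of which 11 had a mean of at least 1 CPM and 6 of these followed the order, 4 of them being members. Dcn and Lum lie 46985 bases apart on chromosome 10 (Dcn at chr10:97479609-97518143 and Lum at chr10:97565128-97572703 of GRCm38, both on the plus strand), with Kera and Epyc next to them. Kera was at 0 to 0.176 CPM and Epyc at 1.22 to 1.97 CPM (Epyc shares 40.6% of its exonic bases with the antisense gene Gm10754, so its level is uncertain), and neither followed the order. Ogn (chr13:49608046-49624501, plus strand) lies 15224 bases after Omd in a cluster with Aspn and Ecm2. There, Omd, at 1.56, 2.14 and 4.28 CPM at 6 months and 1.57, 4.66 and 2.29 CPM at 24 months, and Aspn followed the order, and Ecm2 did not. Ogn and this cluster lie within the gene Cenpp, which is on the opposite strand, shares no exonic base with Ogn and had 40 to 47 counts, beside 114 to 350 counts of Ogn. Prelp, 115840 bases from Fmod on chromosome 1 and the most abundant gene of the family, was highest in mouse 2 at 45.1 TPM, the mouse with the lowest Fmod.

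Some genes in the wider pathways of the other members followed the same order. Of all genes with a mean of at least 1 CPM, 2.82% did. The counts given here include the members. Of the transporter list (8 genes with a mean of at least 1 CPM), Slc6a13, Slc22a6 and Slc47a1 followed it. The first 2 are members, and Slc47a1 was already counted among the further fibroblast markers. Slc22a8 (OAT3), also a transporter of organic anions, was at 21.7, 24.1 and 30.6 TPM at 6 months and 17.2, 28.4 and 31.2 TPM at 24 months, with mouse 5 on top. Of the prostaglandin list (10 genes), only Ptgds and Ptgdr, the receptor for prostaglandin D2, followed the order. Of the list of Igf2 receptors and binding proteins (13 genes), 4 did, namely Igf2, Igfbp2, Igfbp4 and Igfbp5. At an unadjusted p under 0.05, which 30.7% of all genes tested reached, the 17 genes of the proteoglycan list had 2 higher and 0 lower at 24 months, the 11 of the transporter list 0 and 0, the 11 of the prostaglandin list 1 and 0, and the 15 of the Igf2 list 2 and 2. No gene of these lists passed 1% FDR.

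The genes closest to the members were then ranked by the root mean square distance, on the log2 scale over the 6 mice, between a gene's deviations and the mean deviations of the 10 members. The members themselves lay at 0.139 (Ptgds) to 0.408 (Lum). Of the 15751 other genes with a mean of at least 1 CPM, 196 lay within the distance of Lum. The nearest was Ptgdr, at a distance of 0.0940 and with 0.876, 1.54 and 2.44 CPM at 6 months and 0.678, 2.54 and 1.12 CPM at 24 months. It was followed by Gjb2 (0.0976), Aebp1 (0.104), Pcolce (0.106), Slc13a4 (0.108), Anxa1 (0.116), Slc6a20a (0.133), Gpr182 (0.141), Anxa2 (0.150) and F13a1 (0.152). Of these 10, 3 were in the list of further fibroblast markers (Gjb2, Aebp1 and Slc13a4), and F13a1 was in that of the border macrophages. Pcolce, an enhancer of procollagen processing, was at 3.96, 6.40 and 9.13 CPM at 6 months and 3.85, 10.7 and 4.53 CPM at 24 months.

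Since the members shared their order of mice, their promoters were searched for shared letters. The RefSeq promoter table (GRCm38.p6) held 12 promoters for 7 of the 10 genes, and the 250 bases before each start were searched on both strands. TATAAA was in 1 of the 12 (12.4% of 32851 promoters of that length), CCAAT in 3 (33.9%), GGGCGG in 4 (32.7%), the AP-1 motif TGANTCA in 1 (6.75%) and the forkhead motif TGTTTAC in 0 (3.17%). Overlapping matches on the 2 strands were counted apart. The 4 promoters printed here belong to 3 proteoglycans and a transporter on 4 chromosomes that had the same 2 highest mice, and their windows end before the annotated gene. They lie at chr1:134037004-134037253 for Fmod, chr13:49607765-49608014 for Ogn, chr19:8617746-8617995 for Slc22a6 and chrX:73483351-73483600 for Bgn, all on the plus strand, and capitals mark a match to any of the motifs. Fmod had none, Ogn had TATAAA on both strands, Slc22a6 had 3 matches to CCAAT and Bgn had 3 to GGGCGG on the minus strand. No motif was found in all 4, and a match is a description of letters only.
Fmod: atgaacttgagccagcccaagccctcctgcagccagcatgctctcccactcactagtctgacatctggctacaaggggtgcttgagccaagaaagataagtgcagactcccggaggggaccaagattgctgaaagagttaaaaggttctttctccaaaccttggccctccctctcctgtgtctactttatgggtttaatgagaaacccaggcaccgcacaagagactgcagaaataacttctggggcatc
Ogn: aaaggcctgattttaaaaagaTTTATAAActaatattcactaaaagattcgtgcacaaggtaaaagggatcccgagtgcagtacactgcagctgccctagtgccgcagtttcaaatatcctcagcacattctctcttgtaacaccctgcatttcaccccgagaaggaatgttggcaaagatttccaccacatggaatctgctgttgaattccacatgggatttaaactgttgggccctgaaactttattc
Slc22a6: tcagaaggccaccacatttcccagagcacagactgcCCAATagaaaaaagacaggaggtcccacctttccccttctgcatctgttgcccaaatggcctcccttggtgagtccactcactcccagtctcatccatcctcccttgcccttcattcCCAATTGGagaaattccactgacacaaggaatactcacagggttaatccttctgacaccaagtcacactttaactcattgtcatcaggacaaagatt
Bgn: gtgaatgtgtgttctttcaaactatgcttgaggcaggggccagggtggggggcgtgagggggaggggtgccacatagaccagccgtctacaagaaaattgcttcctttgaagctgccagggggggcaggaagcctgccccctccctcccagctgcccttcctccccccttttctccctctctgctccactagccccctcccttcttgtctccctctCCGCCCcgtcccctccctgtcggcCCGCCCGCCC

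The libraries held 29495379 to 36494240 counts. The number of genes with at least 1 count was 33974 to 35651 at 6 months and 40208 to 43561 at 24 months, and TMM factors were 0.921 to 0.946 and 1.04 to 1.10. Neither of these 2 measures followed the full order of mice found for the fibroblast genes: at 6 months, mouse 11 had the most genes with counts, and at 24 months mouse 2 did. The low end was shared in part. Mouse 10 was lowest at 6 months in genes with counts (33974), TMM factor (0.921) and total counts (33493082). At 24 months, mouse 2 had the lowest total (29495379). The highest totals were in mice 11 (36494240) and 5 (32813159), not in mice 17 and 4. The part of these library differences in the order of mice and in the comparison of ages was not tested.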

How the data were processed

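RNA-seq of the cortex was analysed for 3 mice of 6 months and 3 of 24 months. Libraries were made from 10 ng of total RNA, and single-end reads of 75 bp were obtained. As stated in the methods and the submitters' processing notes, the authors trimmed the reads with Trim Galore 0.6.4, mapped them to GRCm38 (GENCODE vM23) with STAR 2.7.3a and counted them on exons with featureCounts (Subread 2.0.0), with multiple mappings shared as fractions and no strand option stated. The deposited counts per gene were whole numbers and were used as they are. The deposited TPM values were computed by the authors and were used for levels, while CPM were computed from the counts.

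Counts were fitted with edgeR 4.0.16 in R 4.3.3 (TMM, at least 10 counts over the 6 libraries, quasi-likelihood test, no covariate), and p-values were adjusted over all genes tested. The test was also run on simulated counts. Their spread between mice followed the trend over all genes, so that run does not cover the wider spread of the members. Log2 CPM used a prior count of 2. Alternatives were edgeR's likelihood ratio test, the Wald test of DESeq2 1.42.0, its size factors, library totals, filterByExpr, no filter, limma 3.58.1 on log2(TPM + 1) for genes with a mean of at least 0.1 TPM, and each mouse left out. Lists and intervals were computed in Python 3.11.15 (scipy 1.17.1, pandas 2.3.3 and numpy 2.4.6). The members and lists were chosen with earlier results of these data known. The text names all 10 members, up to 5 genes per list by mean TPM, genomic neighbours of the members and the 10 nearest genes, and other genes named were chosen after their values were seen. Of the listed symbols, 1 was not in the files (Nov, the older symbol of the listed Ccn3), so it was no further gene. Coordinates are from GENCODE vM21 on GRCm38, which may differ from vM23. No protein sequences were used here.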

Additional observations from a re-analysis of the deposited data

How the results depend on the processing

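In 14 alternatives to the fit of the ages, 0 of the 10 members passed 1% FDR, and the lowest adjusted p of any member was 0.143 (Lum without the 24-month mouse 2, with edgeR's quasi-likelihood test). The number of members with an unadjusted p under 0.05 ranged from 0 to 1 with 1 mouse left out, and it was 0 otherwise. In the reported fit, 30.7% of all genes tested reached this cutoff, and the share in each alternative is not given here. The sign was less stable, since 32 of 140 estimates had the opposite sign to the one reported. With library totals, the log2 fold change became 0.089 for Slc6a13, 0.11 for Slc22a6, 0.10 for Ogn and 0.15 for Fmod. With filterByExpr these were 0.015, 0.032, 0.027 and 0.080, in the same order. With limma on log2(TPM + 1) it was 0.0061 for Slc6a13 and 0.015 for Ogn, without a filter it was 0.0075 for Fmod, and with the fibroblast score as a covariate it was 0.0069 for Ogn. The cause was not tested. With each mouse left out in turn it ran from -0.52 to 0.38 for Dcn, -0.29 to 0.68 for Lum, -0.81 to 0.16 for Igf2, -0.69 to 0.36 for Slc6a13, -0.76 to 0.13 for Ptgds, -0.82 to 0.44 for Slc22a6, -0.61 to 0.34 for Ogn, -0.59 to 0.13 for Mgp, -0.82 to 0.36 for Fmod, -0.38 to 0.38 for Bgn, and the lowest value came in each case without the 24-month mouse 4. The median over the 10 ran from -0.65 to 0.34. The number of genes past 1% FDR over the whole table was 0 in the reported fit, 1703 with the likelihood ratio test, 227 with DESeq2 and 42 without a filter, and with 1 mouse left out it ran from 0 to 13. The ratio of the highest to the lowest summed TPM was 2.74 to 3.17 with 1 mouse left out and 3.39 on summed CPM. No paired analysis was possible because the 2 ages share no replicate number. The lowest counts of a member in a library were 22 (Igf2) and 35 (Lum), and the part of depth in the precision was not tested.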

Other observations

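The oligodendrocyte genes and the fibroblast genes both spread widely between mice of an age. Myelin basic protein (Mbp) was at 553.1, 720.8 and 469.7 TPM in mice 10, 11 and 17 and at 253.7, 641.6 and 887.2 TPM in mice 2, 4 and 5. Mouse 2 was the lowest of its age for the oligodendrocyte genes and for 9 of the 10 fibroblast genes (not Ogn). It was not low for Prelp, at 45.1 TPM, or for Ccn3, at 30.6 TPM. Of the 10 neuronal genes, 0 were higher and 5 lower at 24 months at an unadjusted p under 0.05 in edgeR's quasi-likelihood test. In either direction, 30.7% of all genes tested reached this cutoff, and their share in each direction is not given here. None of the 10 neuronal genes passed 1% FDR. Among the border macrophage genes, F13a1 was at 1.68, 2.86 and 3.80 TPM at 6 months and at 1.97, 4.28 and 2.26 TPM at 24 months, with mice 17 and 4 on top.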
